A study of Mus musculus with 11 samples.

Results

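The genes of the proteasome were followed in the tibialis anterior (TA) muscle of the mdx mouse, the dystrophin-deficient model of Duchenne muscular dystrophy, in untreated mdx mice and in others treated to restore dystrophin. Members were taken by symbol, as every gene on the array whose name is Psm, a letter from a to g and a digit. This gave 49 of 21759 gene symbols, carried by 57 of 28350 probe sets. Where a member had more than 1 probe set, as 7 did, the brightest by mean signal was used. The mean signal reached 30 in 1 group or more for 46 members, and these were tested.

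RNA came from mid-belly cryosections of the TA of 11 male mice aged 14 weeks, with a separate Affymetrix Mouse Gene ST array for each. The C57 group held 3 wild-type mice (strain label C57/B10) without treatment, and the mdx group held 4 untreated mice that carry the mdx allele of Dmd on this background. The treated group held 4 mdx mice that received a single tail vein injection of 12.5 mg/kg Pip6e-PMO at 12 weeks of age. Pip6e-PMO is a peptide-conjugated morpholino oligonucleotide, which lets the splicing machinery skip an exon of Dmd so that a shortened dystrophin can be made. The mdx allele is carried by every cell of the body, the sections hold all cell types of the muscle, and no group of C57 mice given Pip6e-PMO was analysed here.

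The proteasome is the protease that degrades proteins tagged with ubiquitin. Its 20S core is a barrel of alpha rings, which form the gate, around beta rings, which hold the catalytic sites. The 19S cap recognizes ubiquitin, removes it and unfolds the substrate with a ring of ATPases, and the PA28 and PA200 activators can take the place of that cap. Under interferon-gamma, and constitutively in leukocytes, Psmb8, Psmb9 and Psmb10 replace the constitutive catalytic subunits Psmb5, Psmb6 and Psmb7 in new particles, which are then called immunoproteasomes and favour peptides that fit MHC class I molecules. In muscle the proteasome is a main route of protein breakdown during atrophy, and immunosubunits are found both in infiltrating leukocytes and in fibres.

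Promoters were searched because a group of members is known to answer to interferon and another to factors that restore proteasome supply. Promoter sequences (250 bases before and 50 bases after the start) came from RefSeq on GRCm38.p6 and were listed for 41 members. The letters searched on both strands were GAAA, any 2 bases and GAAA, the core of the interferon-stimulated response element, TTCNNNGAA, the core of the gamma-activated site, and TGACNNNGC, the core of the antioxidant response element. The 4 windows below are shown because they belong to an immunosubunit and a PA28 subunit on the one side and to a pair of constitutive catalytic subunits on the other, and each holds 1 of these strings, in capitals.
Psmb8 (chr17:34197945-34198244, + strand): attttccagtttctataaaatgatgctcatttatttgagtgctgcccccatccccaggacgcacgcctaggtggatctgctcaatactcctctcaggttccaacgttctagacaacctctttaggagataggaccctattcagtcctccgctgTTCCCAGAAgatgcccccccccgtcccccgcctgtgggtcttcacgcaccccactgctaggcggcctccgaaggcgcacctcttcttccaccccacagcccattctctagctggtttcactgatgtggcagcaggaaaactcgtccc
Psme1 (chr14:55578244-55578543, + strand): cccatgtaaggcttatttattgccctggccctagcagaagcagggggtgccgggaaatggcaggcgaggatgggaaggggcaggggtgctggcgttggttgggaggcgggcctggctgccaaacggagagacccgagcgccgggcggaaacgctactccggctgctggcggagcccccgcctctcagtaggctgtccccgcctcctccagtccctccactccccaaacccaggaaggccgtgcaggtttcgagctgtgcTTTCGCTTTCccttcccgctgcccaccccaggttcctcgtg
Psmb5 (chr14:54617946-54618245, - strand): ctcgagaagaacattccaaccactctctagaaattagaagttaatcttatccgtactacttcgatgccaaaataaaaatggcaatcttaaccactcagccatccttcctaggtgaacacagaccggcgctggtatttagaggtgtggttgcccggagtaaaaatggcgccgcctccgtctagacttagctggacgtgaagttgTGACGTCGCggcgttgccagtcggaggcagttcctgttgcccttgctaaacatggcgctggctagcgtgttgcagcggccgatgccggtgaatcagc
Psmb6 (chr11:70525107-70525406, + strand): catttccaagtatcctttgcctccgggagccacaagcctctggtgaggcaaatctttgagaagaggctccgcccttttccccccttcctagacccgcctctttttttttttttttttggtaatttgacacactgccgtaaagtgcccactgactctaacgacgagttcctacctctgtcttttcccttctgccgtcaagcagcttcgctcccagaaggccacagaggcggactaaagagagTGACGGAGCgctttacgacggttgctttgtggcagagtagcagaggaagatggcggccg
In Psmb8 the capitals mark a gamma-activated site core that begins 97 bases before the start, and in Psme1 an interferon-stimulated response element core at base 10 after it, read on the other strand. In Psmb5 and Psmb6 they mark antioxidant response element cores that begin 47 and 9 bases before the start. Such short strings are common. The interferon-stimulated string was found in 5 members (12.2%: Psmb3, Psmd4, Psmd9, Psme1 and Psmg4) and in 3.44% of all 32851 promoters. The gamma-activated string was found in 3 members (7.32%: Psmb8, Psmd2 and Psmg1) and in 8.3% of all, and the antioxidant string in 6 members (14.6%: Psmb5, Psmb6, Psmc6, Psmd12, Psmd9 and Psme4) and in 12.4% of all. For Psmb7, Psmb9, Psmb10 and Psme2, the counterparts of the genes shown, no string is listed, and not every member had a promoter listed. A string is a description of these letters and not a bound site.

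Before the comparisons, the arrays were looked at for mice that stand apart. The median intensity was 27.5 to 28.6 on each array. Dmd, read by a single probe set over the whole transcript, which does not test for the skipped exon, lay between 5.77 and 5.87 on the log2 scale in C57, between 4.60 and 5.82 in mdx and between 5.51 and 6.34 in treated mice, and did not pass the test in any comparison (adjusted p = 0.142 to 0.961). Markers of skeletal muscle fibres were abundant in every group, with a summed linear signal of 60248 to 64203 over 8 genes, and none of them passed a test. The lack of a call at such high signals does not show an equal fibre content. Treated mouse 2 stood apart from the other treated mice. It had the highest summed signal of the treated group for 5 leukocyte markers (1213, range 664 to 1213) and for 6 macrophage markers (1283, range 787 to 1283), and the lowest for 4 endothelial markers (1588, range 1588 to 2519). Among the 22 members with a higher mean in treated than in mdx mice it was the lowest treated mouse for 16, and among the 24 with a lower mean it was the highest for 10. Counts are therefore given with and without it. The members themselves helped to single it out, so larger differences or counts without it are no separate support. The paper reports the lowest therapeutic efficacy for its treated sample T2, by skipped Dmd transcripts and by dystrophin in mass spectrometry. Its western blot values did not correlate significantly with either. By its number, T2 is taken to be treated mouse 2. Whether efficacy accounts for the values of this mouse was not tested.

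Few proteasome genes differed between mdx and C57 mice beyond the spread of the mice. A gene was called at an adjusted p under 0.05 in limma, and 12.8% of the 11842 genes tested were called between mdx and C57 mice (7.84% higher and 4.97% lower in mdx mice). Of the 46 members tested, 1 was called (2.17%), Psmd14, and 4 had an unadjusted p under 0.05. The share of all genes at an unadjusted p under 0.05 is not given. Such counts, here and below, are therefore not read as an excess. The median difference of the members was -0.0034 on the log2 scale, against -0.0058 over all genes, and the differences ran from -0.29 (Psmf1) to 0.53 (Psmd14). After Psmd14, the largest differences above 0 were those of Psmc6 (0.36 ± 0.20 (SE), adjusted p = 0.302), Psmb8 (0.35 ± 0.12, adjusted p = 0.0785) and Psmd10 (0.31 ± 0.15, adjusted p = 0.243). The count lay between 0 and 2 when each of the 11 mice was left out in turn. It was 2 without mdx mouse 3 or without treated mouse 2, with Psmb8 as the second gene, and 0 without C57 mouse 1 or 3, mdx mouse 1 or 2 or treated mouse 1, 3 or 4 (3 to 6 members at an unadjusted p under 0.05). Without C57 mouse 2 the single call was Psmf1. With each array centred on its median it was also Psmf1, lower in mdx mice, in place of Psmd14.

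Treatment moved proteasome genes in both directions. Between treated and untreated mdx mice 9 of 46 members were called (19.6%), against 11% of all genes (7.64% higher and 3.34% lower). Psma1, Psma3, Psmd1, Psmd12 and Psme4 rose, while Psmb3, Psmb8, Psme1 and Psme2 fell, and the median difference of the members was -0.0338, against 0.03 over all genes. The signs differed between parts of the particle, a pattern that is described and was not tested. The difference was above 0 for 6 of 7 alpha ring genes (median 0.26) and 5 of 6 19S ATPase genes (median 0.27), and below 0 for 6 of 7 constitutive beta genes (median -0.17), 3 of 3 immunosubunits (median -0.37) and 4 of 4 assembly chaperones of the 20S core (median -0.13), although most of these single differences did not pass the test. Among the assembly chaperones, Psmg3 was below the minimum signal in both groups compared (mean 27.7 in mdx and 25.1 in treated mice). The counts of members called depend on which mice are included. Without treated mouse 2, 20 members were called, 12 higher and 8 lower, and the share over all probe sets tested rose from 11.1 to 28.3%. Without mdx mouse 2, mdx mouse 4 or treated mouse 4 no member was called (18, 16 and 15 had an unadjusted p under 0.05), and without mdx mouse 3, treated mouse 1 or treated mouse 3 only 1 was. The share over all probe sets fell as well, to 6.8, 2.44 and 1.86% in the fits with no call and to 3.86, 3.38 and 2.62% in those with 1. Without C57 mouse 2, which enters through the shared spread, 5 were called, at 7.55% over all probe sets.

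**Figure D1:**
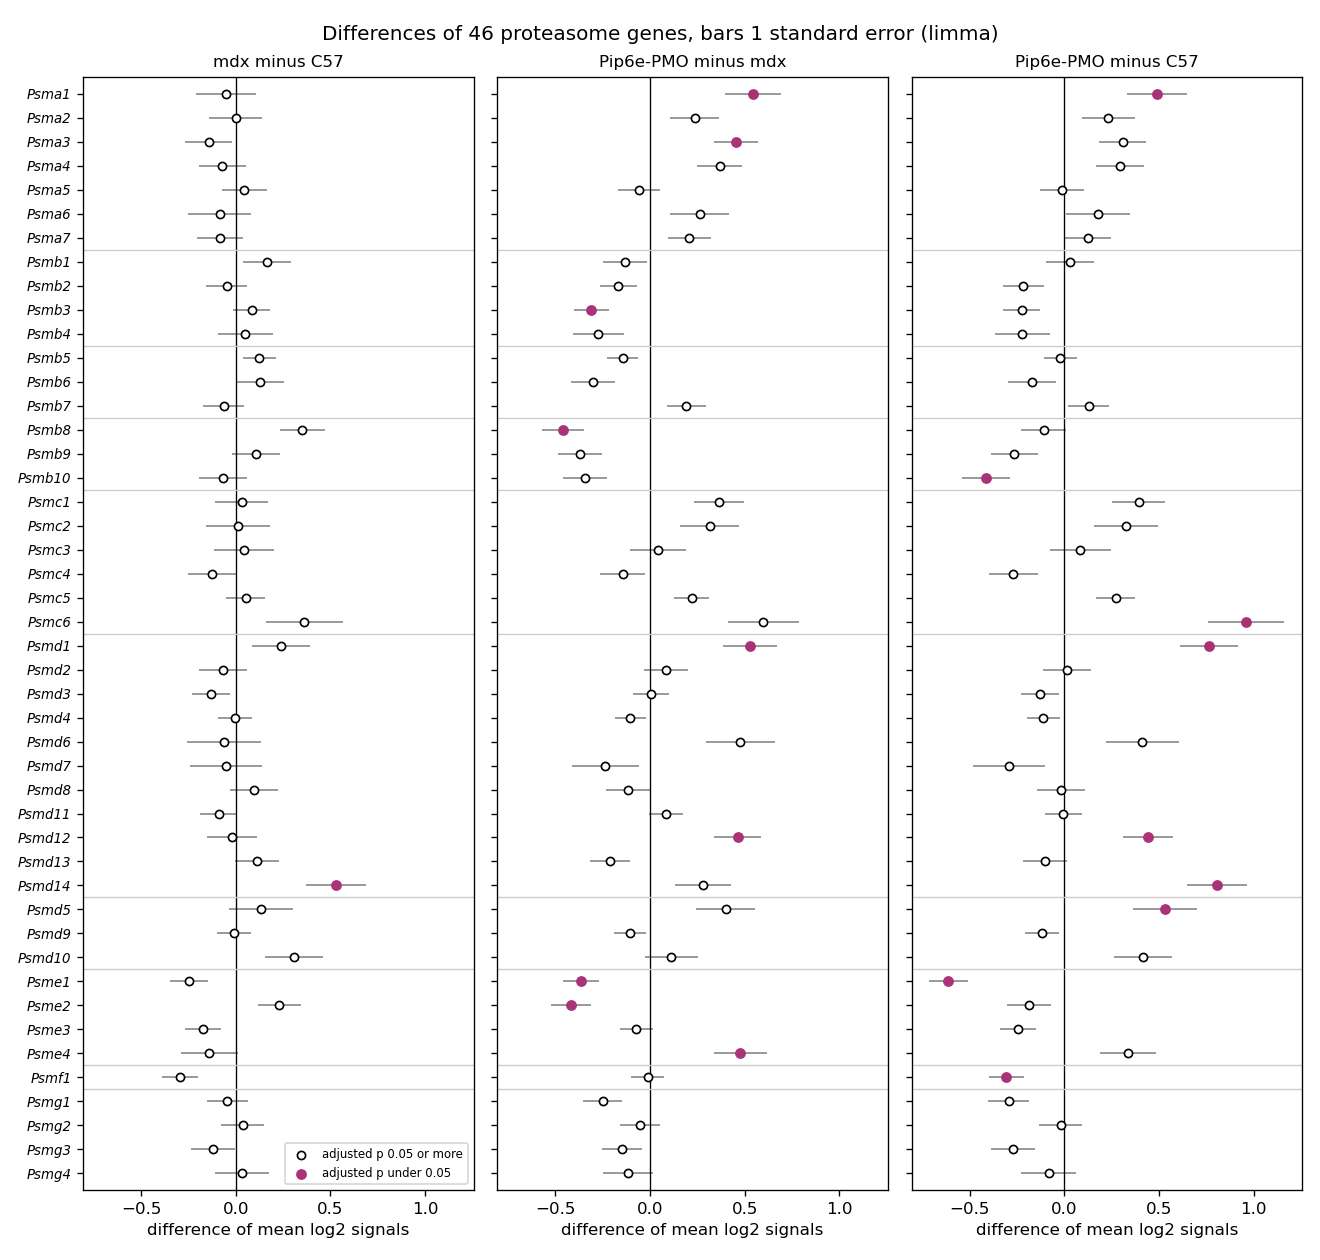
Differences in mean log2 signal for the 46 members tested, in the order of the subunit classes (grey lines divide the classes), with bars of 1 standard error from limma. Filled points have an adjusted p under 0.05: 1 in mdx minus C57, 9 in treated (Pip6e-PMO) minus mdx and 9 in treated minus C57.

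Against C57 mice, treated mice showed 9 called members of 46 (19.6%), where 25.5% of all genes were called. Psma1, Psmc6, Psmd1, Psmd5, Psmd12 and Psmd14 were higher, at a background of 17.0% of genes called higher, and Psmb10, Psme1 and Psmf1 were lower, at a background of 8.47%. The split of 6 higher and 3 lower became 4 and 5 with each array centred on its median, and 5 and 4 with repeated quantile normalization. The count was 4 without C57 mouse 3, treated mouse 3 or treated mouse 4 and 19 without treated mouse 2, where 13.1, 17.6, 16.8 and 34.0% of all probe sets were called, against 24.6% with all mice. The calls of Psmc6, Psmd1, Psmd14 and Psme1 were kept whichever of the 11 mice was left out. The comparisons share mice: mdx mice stand in both of the first comparisons with opposite sign, and treated mice in both of the last, so that a gene that is high in mdx mice by chance appears to rise in the one and fall in the other.

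The immunosubunit Psmb8, the chymotrypsin-like site that takes the place of Psmb5, was 6.69, 6.62 and 6.56 on the log2 scale in the 3 C57 mice. It was 7.02, 7.07, 6.73 and 7.08 in the mdx mice and 6.37, 6.76, 6.49 and 6.44 in the treated mice. Every mdx mouse was above every C57 mouse, and treated mouse 2 alone overlapped the lowest mdx mouse. Psmb8 fell by 0.46 ± 0.11 (SE) with treatment (1.38-fold, adjusted p = 0.0263, limma). The difference between mdx and C57 mice, 0.35 ± 0.12, did not pass the test (adjusted p = 0.0785), but did without mdx mouse 3 (0.43, adjusted p = 0.037) or without treated mouse 2 (adjusted p = 0.0356). Treated mice did not differ detectably from C57 mice (-0.11 ± 0.12, adjusted p = 0.52). The call with treatment was kept in 6 of 11 fits that left out a mouse, and was lost without mdx mouse 2 or 4 or treated mouse 1, 3 or 4 (adjusted p = 0.0561 to 0.0773). At the same difference of -0.46 it was also lost in a limma fit of treated and mdx mice alone (adjusted p = 0.0534). The same held with the replicate number as a block (adjusted p = 0.0562). The test of the study's methods gave 0.115 after the Benjamini-Hochberg adjustment used here. Those methods set the criterion at an unadjusted p under 0.05, so 0.115 does not show a loss by that criterion. For its clustering of mRNAs the study used a stricter p and a minimum fold change in mdx muscle as well. That stricter filter was not applied here.

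Psmb9, which replaces Psmb6, was 6.84, 6.86 and 7.16 in C57, 7.18, 7.06, 7.04 and 6.96 in mdx and 6.62, 6.85, 6.85 and 6.44 in treated mice. All treated mice lay below all mdx mice, and C57 and mdx mice overlapped. The difference with treatment was -0.37 ± 0.12 (adjusted p = 0.0578), and it passed the test without treated mouse 2 (-0.42, adjusted p = 0.0229). Psmb10, which replaces Psmb7, was 7.76, 7.76 and 8.20 in C57, 7.83, 7.84, 7.77 and 7.92 in mdx and 7.33, 7.71, 7.50 and 7.44 in treated mice. Every treated mouse was below every other mouse. Psmb10 was lower in treated than in C57 mice by 0.41 ± 0.13 (1.33-fold, adjusted p = 0.0341), a call that was lost without C57 mouse 3, the highest of its group (-0.265, adjusted p = 0.151), or without treated mouse 1, 3 or 4 (adjusted p = 0.0659 to 0.0784). Against mdx mice the difference was -0.345 ± 0.12 (adjusted p = 0.073), and it passed without treated mouse 2 (-0.42, adjusted p = 0.0212) or without C57 mouse 3 (adjusted p = 0.0453). Neither Psmb9 (0.11 ± 0.12, adjusted p = 0.668) nor Psmb10 (-0.07 ± 0.13, adjusted p = 0.814) passed between mdx and C57 mice.

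The constitutive catalytic subunits were not called in any comparison in limma, and 1 of their differences, that of Psmb6 with treatment, had an unadjusted p under 0.05. Psmb5 was 12.18, 12.13 and 12.27 in C57, 12.36, 12.31, 12.33 and 12.27 in mdx and 12.07, 12.30, 12.16 and 12.16 in treated mice, a difference of -0.145 ± 0.08 with treatment (adjusted p = 0.236). Psmb6, the caspase-like site, was 10.66, 10.66 and 10.83 in C57, 10.91, 10.90, 10.73 and 10.84 in mdx and 10.25, 10.78, 10.71 and 10.44 in treated mice. Its difference with treatment was -0.30 ± 0.12 (adjusted p = 0.109), and without treated mouse 2 it passed (-0.38, adjusted p = 0.0285). Psmb7, the trypsin-like site, was the only constitutive beta gene with a higher mean in treated than in mdx mice. It was 10.39, 10.10 and 10.55 in C57, 10.32, 10.35, 10.25 and 10.21 in mdx and 10.38, 10.56, 10.44 and 10.52 in treated mice. All treated mice were above all mdx mice, by 0.19 ± 0.10 on average (adjusted p = 0.216).

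**Figure D2:**
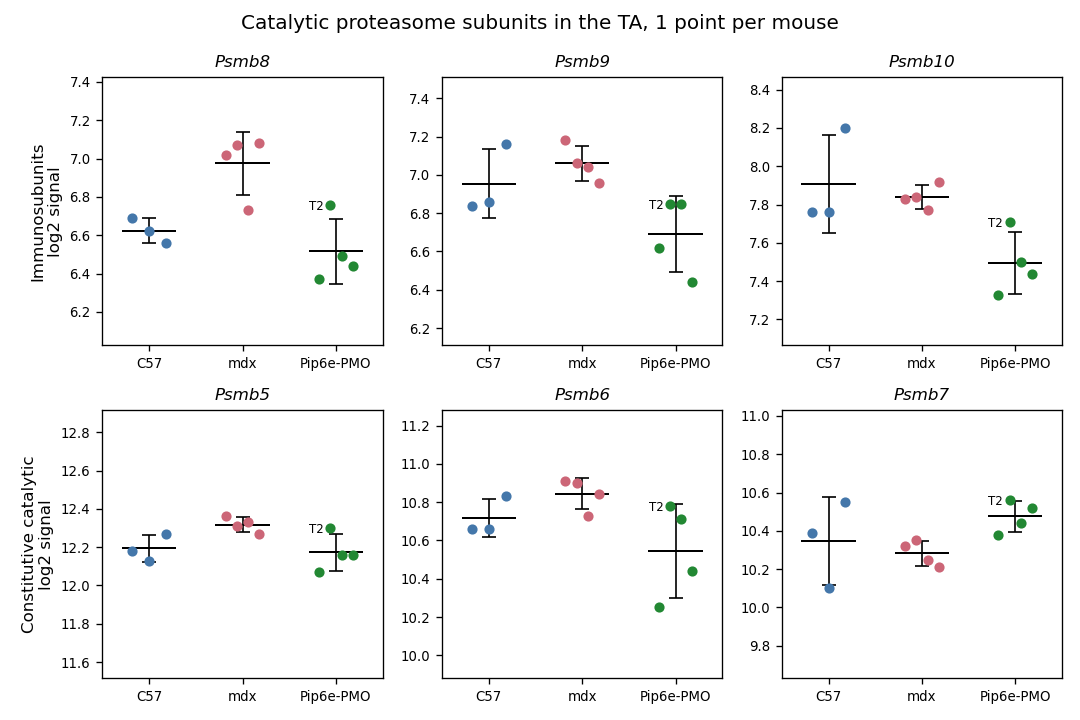
Log2 signal of the immunosubunits (upper row) and of the constitutive subunit each replaces (lower row), 1 point per mouse, with the mean and 1 SD of each group and T2 for treated mouse 2. Each panel spans 1.4 log2 units. Psmb8 lies between 6.73 and 7.08 in mdx and between 6.37 and 6.76 in treated (Pip6e-PMO) mice, and Psmb7 runs the other way, from 10.21 to 10.35 in mdx to 10.38 to 10.56 in treated mice.

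Each immunosubunit was then set against its counterpart inside the same mouse, which asks whether the pair moved apart. The level of such a log2 ratio depends on the probes and is not interpreted, and only its differences between groups are. The ratio of Psmb10 to Psmb7 was -2.63, -2.34 and -2.35 in C57, -2.49, -2.51, -2.48 and -2.29 in mdx and -3.05, -2.85, -2.94 and -3.08 in treated mice. The treated mice did not overlap either group. The difference from mdx mice was -0.54, with p = 0.0286 (n = 4 and 4) in a two-sided exact permutation test, the smallest that 4 mice against 4 allow, and 0.171 after adjustment over the 9 tests. From C57 mice it was -0.54 (p = 0.0571, exact, the smallest for 3 against 4, adjusted p = 0.171). Between mdx and C57 mice the ratio differed by -0.0025 (exact p = 1.0). The ratio of Psmb8 to Psmb5 was -5.49, -5.51 and -5.71 in C57, -5.34, -5.24, -5.60 and -5.19 in mdx and -5.70, -5.54, -5.67 and -5.72 in treated mice. It was lower with treatment by 0.315 on average (a difference of -0.315, exact p = 0.0571, adjusted p = 0.171), with overlap between mdx mouse 3 and treated mouse 2, and its difference between mdx and C57 mice was 0.23 (exact p = 0.171, adjusted p = 0.386). The ratio of Psmb9 to Psmb6 lay between -3.82 and -3.67 in C57, between -3.88 and -3.69 in mdx and between -4.0 and -3.63 in treated mice, and the groups overlapped in all 3 comparisons (exact p = 0.343 to 0.743). The smallest adjusted p that these 9 tests could give together is 0.0571, so none could pass after adjustment, and the values are given as a description.

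**Figure D3:**
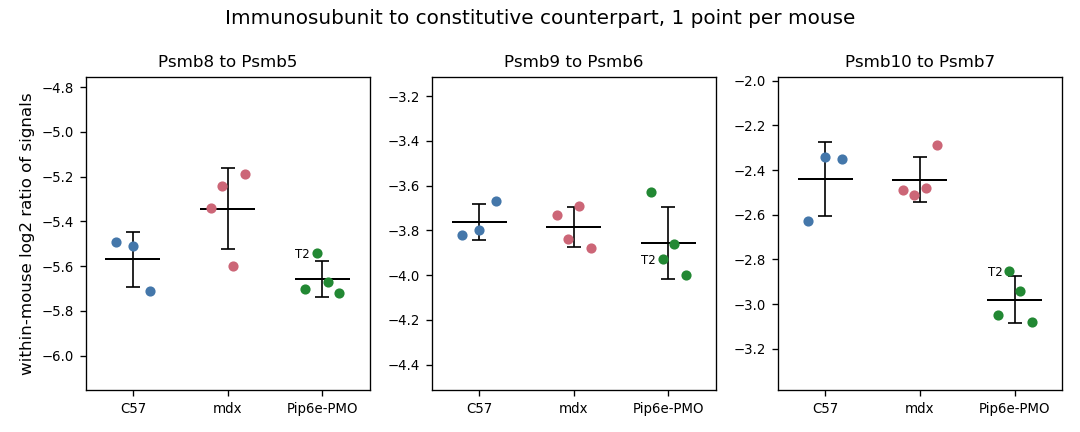
Log2 ratio of each immunosubunit to the constitutive subunit it replaces, taken within each mouse, with the mean and 1 SD of each group and T2 for treated mouse 2. The Psmb10 to Psmb7 ratio is -3.08 to -2.85 in treated (Pip6e-PMO) mice and -2.63 to -2.29 in all others, whereas the Psmb9 to Psmb6 ratios of the groups overlap.

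Leukocyte markers were higher in mdx than in C57 mice. The summed linear signal of the 5 leukocyte markers (Ptprc, Cd53, Coro1a, Laptm5 and Itgb2) lay between 364 and 444 in C57, between 845 and 1318 in mdx and between 664 and 1213 in treated mice, and 5 of 5 were called higher in mdx than in C57 mice and 0 of 5 between treated and mdx mice in limma (3 at an unadjusted p under 0.05), where Ptprc and Cd53 were each at 0.0475 and the other 3 below 0. Of 5 macrophage markers tested, 4 were higher in mdx than in C57 mice (the list summed to between 488 and 622 in C57, between 1101 and 1843 in mdx and between 787 and 1283 in treated mice). With treatment Cd68 fell by 1.04 and Mrc1 rose by 0.49. Nkg7, a granule protein of cytotoxic lymphocytes, was 2.00 higher in mdx than in C57 mice and fell by 0.97 with treatment. The other NK cell markers listed, Ncr1 and Klrb1c, stayed below the minimum signal. The dendritic cell marker Itgax was 2.02 higher in mdx than in C57 mice and was not called with treatment (-0.44, adjusted p = 0.363). Cd209a fell by 0.68 with treatment and was not called between mdx and C57 mice (0.28, adjusted p = 0.323). Flt3 stayed below the minimum signal. Ptprc, Cd53, the macrophage marker Itgam, Nkg7 and Itgax had a C57 mean below the minimum signal (27.1, 29.3, 28.4, 22.3 and 22.2 on the linear scale), so a higher level in mdx or treated mice was a condition of their being tested. The T cell list (6 genes on the array, summed signal between 72 and 81 in C57, between 88 and 100 in mdx and between 78 and 83 in treated mice) and the B cell list (3 genes, summed signal 35 to 45 over all mice) stayed below the minimum signal in every group. Of 4 endothelial markers, Pecam1 (0.78) and Tek (0.97) rose with treatment, and of 4 fibroblast markers 0 did (1 at an unadjusted p under 0.05), while Pdgfra and Dcn were higher in treated than in C57 mice, by 1.06 and 0.66. The part of leukocytes in the immunosubunit values was not tested. In a bulk section, fewer cells of a type and less RNA per cell cannot be told apart.

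The PA28 genes were called with treatment, both lower. Psme1, the alpha subunit of the PA28 ring that opens the gate of the 20S core and is induced by interferon-gamma, was 8.65, 8.76 and 8.89 in C57, 8.65, 8.45, 8.44 and 8.54 in mdx and 8.04, 8.07, 8.26 and 8.25 in treated mice. Every treated mouse was below every other mouse. Psme1 fell by 0.365 ± 0.09 from mdx to treated mice (1.29-fold, adjusted p = 0.0321), and was 0.61 ± 0.10 lower in treated than in C57 mice (1.53-fold, a difference of -0.61, adjusted p = 0.00187). Its mean in mdx mice lay below that in C57 mice, a difference that did not pass (-0.25 ± 0.10, adjusted p = 0.148). Psme2, the beta subunit, was 9.38, 9.11 and 9.14 in C57, 9.43, 9.47, 9.34 and 9.52 in mdx and 8.79, 9.04, 9.24 and 9.02 in treated mice, and fell by 0.42 ± 0.11 with treatment (1.34-fold, adjusted p = 0.0321) without overlap. A second probe set that carries the symbol Psme2, but lies on another chromosome, gave -0.36 ± 0.10 (adjusted p = 0.0397). Psme2 did not pass in limma between treated and C57 mice (-0.19 ± 0.12, adjusted p = 0.245), which overlapped. Nor did it pass between mdx and C57 mice (0.23 ± 0.12, adjusted p = 0.245). The calls with treatment were lost in 7 and 6 of 11 fits that left out a mouse, those without any mdx mouse or without treated mouse 1 or 4, and for Psme1 also without treated mouse 3 (adjusted p = 0.0502 to 0.0867).

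The other activators behaved differently. Psme4, which encodes PA200, was 9.05, 9.04 and 8.73 in C57, 9.11, 8.88, 8.69 and 8.52 in mdx and 9.37, 9.03, 9.28 and 9.43 in treated mice. It rose by 0.48 ± 0.14 with treatment (1.39-fold, adjusted p = 0.0464), with treated mouse 2 inside the range of the mdx mice, and the call held in 3 of 11 fits that left out a mouse. Those were the fits without C57 mouse 3, mdx mouse 1 or treated mouse 2, and in the others the adjusted p was 0.0575 to 0.126. Psme3, the nuclear PA28 gamma, showed no call, and its difference with treatment was -0.07 ± 0.09 (adjusted p = 0.609). Psmf1 encodes PI31, a protein that binds the 20S core and was first described as an inhibitor. Psmf1 was 8.32, 8.12 and 8.41 in C57, 8.08, 7.94, 7.89 and 8.05 in mdx and 7.94, 7.98, 8.02 and 7.97 in treated mice. Every mdx and treated mouse was below every C57 mouse. The difference passed for treated against C57 mice (-0.31 ± 0.09, adjusted p = 0.0349) and not for mdx against C57 mice (-0.29 ± 0.09, adjusted p = 0.0657), and treated and mdx mice differed by -0.01 ± 0.09. The call of treated against C57 mice was lost without C57 mouse 1 or 3 or treated mouse 1, 3 or 4 (adjusted p = 0.0596 to 0.14).

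In the 19S cap, Psmd14 was the only member called against C57 both in mdx and in treated mice. Psmd14 encodes Rpn11, the metalloprotease that takes ubiquitin chains off the substrate. It was 7.29, 7.36 and 7.35 in C57, 8.05, 8.20, 7.62 and 7.58 in mdx and 8.20, 7.85, 8.25 and 8.27 in treated mice. No C57 mouse overlapped either group, and the mdx mice fell into a higher and a lower pair. Psmd14 was higher in mdx mice by 0.53 ± 0.16 (1.44-fold, adjusted p = 0.049) and in treated mice by 0.81 ± 0.16 (1.75-fold, adjusted p = 0.00456), and the difference with treatment was 0.28 ± 0.15 (adjusted p = 0.213). The call in mdx mice was kept in 3 of 11 fits that left out a mouse, those without mdx mouse 3 or 4 or treated mouse 2 (in the others, adjusted p = 0.0591 to 0.124), whereas that in treated against C57 mice was kept in all 11.

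Psmc6, an ATPase of the base, had the largest difference of any member tested between treated and C57 mice. It was 5.91, 6.15 and 6.09 in C57, 6.78, 6.71, 6.15 and 6.01 in mdx and 7.07, 6.59, 7.14 and 7.24 in treated mice, and was 0.96 ± 0.20 higher in treated than in C57 mice (1.95-fold, adjusted p = 0.00651). The mdx mice split into the same pairs as for Psmd14, with mice 1 and 2 high and mice 3 and 4 within the C57 range. The difference with treatment, 0.60 ± 0.19, did not pass (adjusted p = 0.0588). The other 5 ATPase genes showed no call, from -0.145 (Psmc4) to 0.36 (Psmc1) with treatment.

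Psmd1, the Rpn2 scaffold of the base, was 8.88, 8.56 and 8.38 in C57, 8.98, 8.93, 8.83 and 8.64 in mdx and 9.41, 9.02, 9.50 and 9.56 in treated mice. Every treated mouse was above every other mouse. Psmd1 rose by 0.53 ± 0.14 with treatment (1.44-fold, adjusted p = 0.0369) and was 0.77 ± 0.15 higher than in C57 mice (1.70-fold, adjusted p = 0.005). Psmd12, the Rpn5 subunit of the lid, was 7.11, 7.21 and 7.21 in C57, 7.33, 7.23, 7.05 and 7.02 in mdx and 7.59, 7.29, 7.75 and 7.85 in treated mice. It rose by 0.46 ± 0.12 with treatment (1.38-fold, adjusted p = 0.0359) and was 0.44 ± 0.13 higher in treated than in C57 mice (adjusted p = 0.0312). With treatment, the calls of Psmd1 and Psmd12 were each lost in 7 of 11 fits, those without C57 mouse 2, mdx mouse 2, 3 or 4, or treated mouse 1, 3 or 4 (adjusted p = 0.0523 to 0.107). Against C57 mice, Psmd1 kept its call in all 11 fits, while Psmd12 lost it without any 1 C57 mouse or without treated mouse 1, 3 or 4 (adjusted p = 0.0515 to 0.081).

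Of the 11 non-ATPase subunits of the cap, 7 had a difference above 0 with treatment, and 2 of them were called. Psmd4 (-0.105) and Psmd2 (0.08), which hold binding sites for ubiquitin, and the lid subunit Psmd3 (0.005) were not called in any comparison. The brighter probe set of Psmd2 is not marked as unique, and the unique one gave 0.01. Psmd7, the lid partner of Psmd14, depends on the probe set. The brighter one used here spans 437 bases, may hybridize to other transcripts according to the deposited annotation, and gave -0.24 ± 0.18 with treatment (adjusted p = 0.382), with treated mouse 2 at 10.16 and the other treated mice at 10.94 to 11.07. The probe set of Psmd7 marked as unique gave the opposite sign, 0.355 ± 0.09 (adjusted p = 0.0306), and 0.32 ± 0.10 for treated against C57 mice (adjusted p = 0.0322). Unique probe sets were then used for every member that has one, a choice made after seeing the data. With them, 10 members in place of 9 were called in each of these comparisons. Psma3, Psma4 and Psmd11 have no unique probe set and kept the brightest, and Psma3 was among those called with treatment.

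Among the chaperones that build the base, Psmd5 was 7.14, 6.73 and 6.73 in C57, 7.01, 7.25, 6.81 and 6.93 in mdx and 7.38, 7.01, 7.51 and 7.70 in treated mice. It was 0.53 ± 0.17 higher in treated than in C57 mice (1.45-fold, adjusted p = 0.0376), with treated mouse 2 below C57 mouse 1, and the call was lost without C57 mouse 2 or 3 or treated mouse 1, 3 or 4 (adjusted p = 0.0645 to 0.135). Psmd9 and Psmd10, the other chaperones of the base in this family, were not called, at -0.11 and 0.11 with treatment. The 4 chaperones of the 20S core, Psmg1 to Psmg4, were not called either (0, 1 and 2 at an unadjusted p under 0.05 in the 3 comparisons). Psmg1 was at -0.25 ± 0.10 with treatment (adjusted p = 0.12) and at -0.29 ± 0.11 in treated against C57 mice (adjusted p = 0.0686), and the treated mice overlapped neither group. With each array centred on its median and with repeated quantile normalization it was called lower in treated than in C57 mice. Psmg3 reached the minimum signal only in C57 mice (mean 30.3, against 27.7 in mdx and 25.1 in treated mice), so a higher C57 value was a condition of its being tested.

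**Figure D4:**
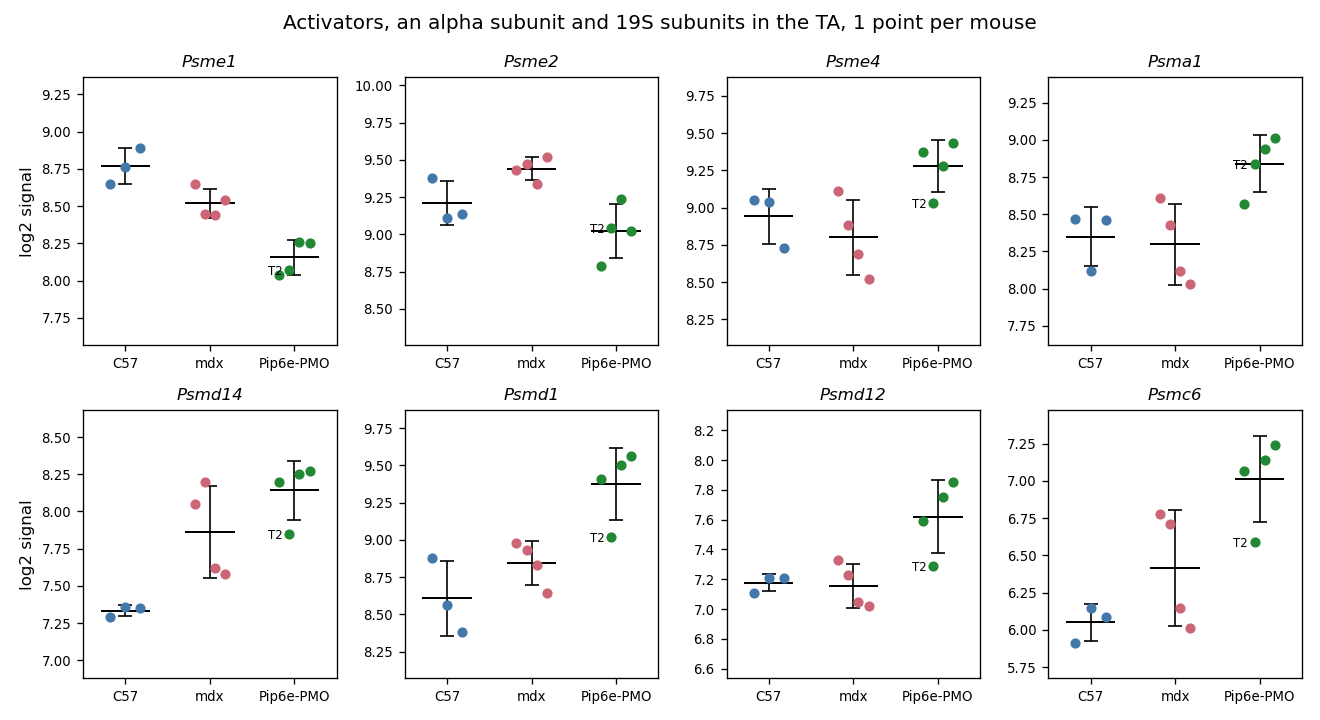
Log2 signal of activators, an alpha ring gene and 19S genes, 1 point per mouse, with the mean and 1 SD of each group and T2 for treated mouse 2. Each panel spans 1.8 log2 units. Psme1 and Psme2 have their lowest means in treated (Pip6e-PMO) mice, where Psme4, Psma1, Psmd1, Psmd12 and Psmc6 have their highest. For Psme2 the treated and C57 mice overlap. Psmd14 is 7.29 to 7.36 in C57 against 7.58 to 8.27 in all other mice.

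In the 20S core, most alpha genes had a difference above 0 with treatment and most beta genes one below 0. Psma1 was 8.47, 8.12 and 8.46 in C57, 8.61, 8.43, 8.12 and 8.03 in mdx and 8.57, 8.84, 8.94 and 9.01 in treated mice. It rose by 0.54 ± 0.15 from mdx to treated mice (1.46-fold, adjusted p = 0.0378), with mdx mouse 1 above treated mouse 1, and was 0.49 ± 0.16 higher than in C57 mice (1.4-fold, adjusted p = 0.042). Psma3 was 8.99, 8.81 and 9.22 in C57, 8.94, 8.92, 8.79 and 8.80 in mdx and 9.24, 9.08, 9.45 and 9.49 in treated mice, and rose by 0.45 ± 0.12 (1.37-fold, adjusted p = 0.0324) without overlap. The other 2 probe sets with the symbol Psma3, on other chromosomes, gave 0.32 (adjusted p = 0.158) and 0.295 (adjusted p = 0.284), and all 3 are marked as able to hybridize to more than 1 transcript. Of the remaining alpha genes, Psma2, Psma4, Psma6 and Psma7 had differences of 0.21 to 0.37 and Psma5 of -0.06, none of them called. The call of Psma1 with treatment was lost without mdx mouse 2, 3 or 4 or treated mouse 3 or 4, and that of Psma3 without these or treated mouse 1 (adjusted p = 0.053 to 0.107). Against C57 mice, Psma1 lost its call without any 1 C57 mouse, mdx mouse 2 or treated mouse 3 or 4 (adjusted p = 0.0513 to 0.161).

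Psmb3, a structural beta subunit without a catalytic site, was 12.16, 12.15 and 12.29 in C57, 12.31, 12.31, 12.31 and 12.21 in mdx and 11.77, 12.11, 12.05 and 11.97 in treated mice. The treated mice were below all others, and Psmb3 fell by 0.31 ± 0.09 with treatment (1.24-fold, adjusted p = 0.0474). A second probe set with the symbol Psmb3 gave -0.30 ± 0.09 (adjusted p = 0.0443). It lies on another chromosome and is marked as able to hybridize to more than 1 transcript. The call of the first was kept in 1 of 11 fits, that without treated mouse 2, and the adjusted p in the others was 0.053 to 0.114. Psmb1, Psmb2 and Psmb4 had differences of -0.13 to -0.27 with treatment and no call.

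**Figure D5:**
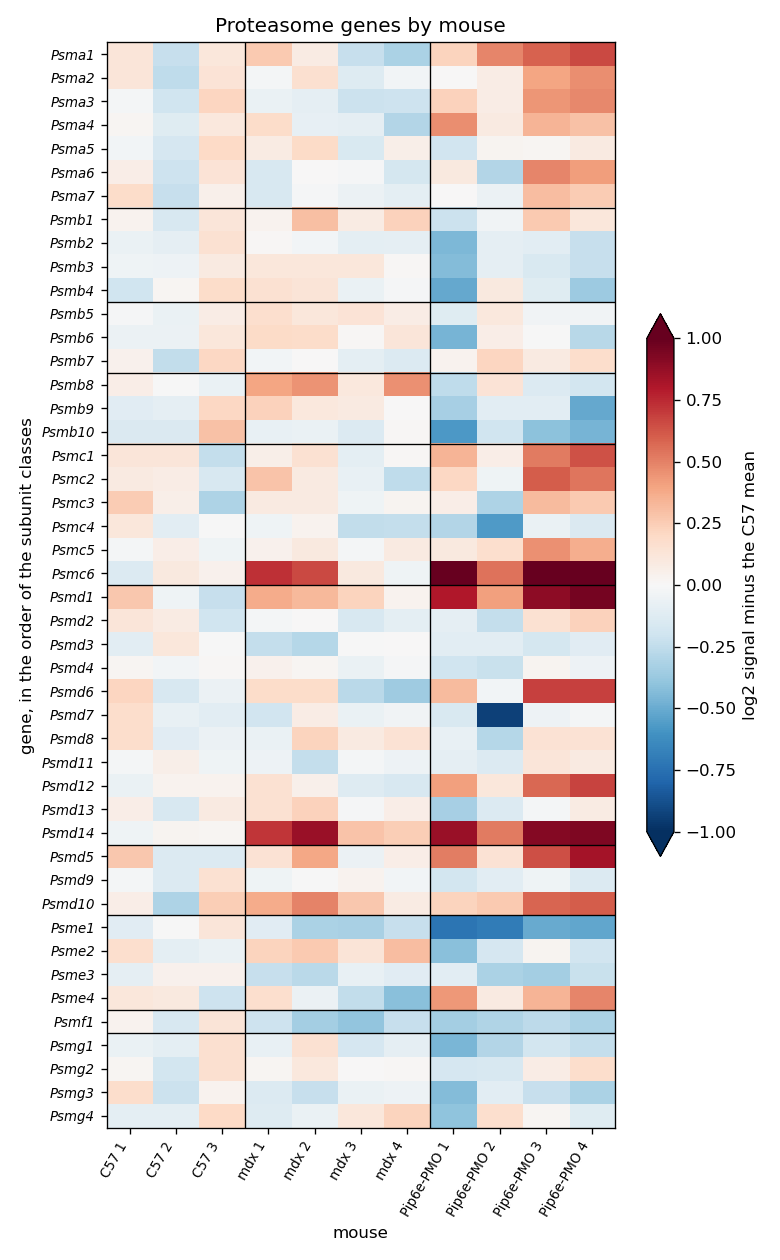
Log2 signal of each tested member in each mouse minus the mean of the 3 C57 mice, in the order of the subunit classes (black lines divide classes and groups). The colour scale runs from -1 to 1, and values beyond it take the end colour. Treated (Pip6e-PMO) mice 1, 3 and 4 are red for most alpha and many 19S genes and blue for Psmb10, Psme1 and Psmg1, treated mouse 2 is paler for most alpha genes, and mdx mice 1 and 2 are red for Psmc6 and Psmd14.

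3 members were not tested. Psma8, the alpha subunit of the testis, was 2.96 to 3.41 and Psmb11, the catalytic subunit of the thymic cortex, was 3.28 to 3.80 on the log2 scale in the 11 mice, below the minimum signal in every group. Psmc3ip, at 4.24 to 4.97, has a symbol that meets the rule but encodes a protein of meiotic recombination and no proteasome subunit.

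Genes that work with the proteasome were read from the same fit. Of 15 partners that carry other symbols, Adrm1, the ubiquitin receptor Rpn13, was lower in mdx than in C57 mice (-0.38 ± 0.11, adjusted p = 0.0381) and in treated than in C57 mice (-0.34 ± 0.11, adjusted p = 0.0378). Uchl5, the deubiquitinase that Adrm1 recruits, was higher in treated than in C57 mice (0.51 ± 0.11, adjusted p = 0.00793), as was the cap-bound thioredoxin-like protein Txnl1 (0.42 ± 0.12, adjusted p = 0.024). No partner was called with treatment (7 at an unadjusted p under 0.05), where 12 of 15 differences were above 0 (median 0.175). Of 10 regulators of proteasome genes tested, which include Nfe2l1, Nfe2l2 and the Foxo factors, 0 were called in any of the 3 comparisons in limma (2 in each at an unadjusted p under 0.05), and Nfe2l1, the factor that raises proteasome genes when the protease is inhibited, differed by 0.03 ± 0.09 with treatment. Of 9 genes for ubiquitin, its activating enzyme and the Vcp unfoldase complex, 1 was called, Vcp, higher in treated than in C57 mice (0.32 ± 0.10, adjusted p = 0.0419). Of 15 ubiquitin ligases tied to atrophy, Nedd4 rose with treatment (0.41 ± 0.12, adjusted p = 0.0452), Nedd4 (0.77) and Fbxo30 (0.905) were higher in treated than in C57 mice, and Fbxo31 was lower in mdx (-0.51) and in treated (-0.43) than in C57 mice. The ligases best known for atrophy, Fbxo32 (0.115 ± 0.26) and Trim63 (0.05 ± 0.18), were not called with treatment.

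The class I pathway takes up the peptides that the immunoproteasome makes. Of its 14 genes tested, B2m, the light chain of class I molecules (0.64 ± 0.17, adjusted p = 0.0276), and the chaperone Pdia3 (0.60 ± 0.13, adjusted p = 0.0106) were higher in mdx than in C57 mice, and 13 of 14 differences were above 0. With treatment the heavy chains H2-D1 (-0.43 ± 0.10, adjusted p = 0.025) and H2-T23 (-0.415 ± 0.10, adjusted p = 0.0261) fell and the chaperone Hspa5 rose (0.39 ± 0.10, adjusted p = 0.0296). H2-D1 had a mean of 10.03 ± 0.03 (SD, n = 3) in C57 mice and was 10.29, 10.35, 10.16 and 10.19 in mdx and 9.76, 10.08, 9.79 and 9.63 in treated mice. Treated mouse 2 was again the treated mouse nearest to the mdx group. The transporter Tap1, a close neighbour of Psmb8 and Psmb9 in the MHC region, was not called (-0.165 ± 0.09 with treatment, adjusted p = 0.224). Canx, Pdia3 and Hspa5, all chaperones of the endoplasmic reticulum, were higher in treated than in C57 mice, by 0.69, 0.81 and 0.595. Of 17 genes of the interferon-gamma response tested, Cxcl10 (0.885), Ciita (0.69) and Ifngr1 (0.42) were higher in mdx than in C57 mice, and Ciita and Ifngr1 also in treated mice (0.60 and 0.44). Cxcl10 reached the minimum signal in mdx mice alone (mean 32.8, against 17.2 in C57 and 22.3 in treated mice) and Ciita in both groups of mdx mice (C57 mean 26.5), so their higher values there were a condition of their being tested. None of the 17 was called with treatment in limma (7 at an unadjusted p under 0.05), and Ifng itself, at 3.27 to 3.90, was below the minimum signal in every group.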

How the data were processed

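Arrays of TA RNA from 11 mice were used (3 C57, 4 untreated mdx and 4 mdx given Pip6e-PMO). Per the methods, the authors ran RMA-Sketch in Affymetrix Expression Console, which corrects background, brings arrays to a common distribution and summarizes probes by median polish. The deposited values are linear intensities of 28350 probe sets. The number of arrays limits the precision. No build is named for the deposited probe set positions, which are not printed. No column of per-sample values was left unused (0).

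The intensities were taken to log2, and probe sets whose mean signal reached 30 in 1 group or more (14494, which gave 11842 genes with 1 probe set each) were fitted in limma 3.58.1 (R 4.3.3) with 1 mean per group over all 11 mice. Tests were two-sided, adjusted by Benjamini-Hochberg over these probe sets, and called under 0.05 with no minimum fold. Values after ± are standard errors of the fit. Shares over all genes use 1 probe set a gene, that with the highest mean log2 signal. Ratios were tested by exact permutation over mice, adjusted over 9 tests. The fit was tested on simulated data. Other steps used Python 3.11.15 with pandas 2.3.3, NumPy 2.4.6, SciPy 1.17.1 and matplotlib 3.10.9.

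The members, the related lists and the tests were chosen with earlier results of these data known. Values per mouse are given for Psmb5 to Psmb10, Psme1, Psme2 and the 10 further members called in any comparison. Psmd7 and H2-D1 fall outside this rule and were singled out after their values were seen. The promoters are those of RefSeq for GRCm38.p6. The lists were proteasome partners, regulators of proteasome genes, ubiquitin genes and Vcp, atrophy ligases, class I antigen processing, the interferon-gamma response, and markers of leukocytes, macrophages, T, NK, B and dendritic cells, endothelium, fibroblasts and fibres. The labels do not state litters or batches, so p-values measure the spread between these mice.

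Other settings tried were the methods' own t-test (log2 and linear signals), limma on the pair of groups alone, eBayes with trend and robust options, and arrayWeights. A minimum signal of 100 or none, centring on array medians, a second quantile normalization and averaging the probe sets of each gene were also tried. So were replicate number as a block, probe sets marked unique where a member had one (chosen after seeing the data) and leaving out each mouse.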

Additional observations from a re-analysis of the deposited data

Results flagged for a closer look

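In 5 of 92 groups of 4 mice, 1 mouse lay far from the others in its group by Dixon's criterion, where chance gives about 1 in 20. Psmb3 was 12.21 in mdx mouse 4 and 12.31 in each of the other mdx mice. Psmd11 was 8.96 in mdx mouse 2 and 9.15 to 9.18 in the others. Among treated mice, Psmd3 was 9.08 in mouse 3 and 9.14 to 9.15 in the others, while mouse 2 had Psmd7 at 10.16, with the others at 10.94 to 11.07, and Psmd14 at 7.85, with the others at 8.20 to 8.27. All values are log2 signals.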

How the results depend on the processing

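Main counts of members called were 1 (mdx against C57), 9 (treated against mdx) and 9 (treated against C57), where 12.0, 11.1 and 24.6% of all probe sets were called. In that order, the methods' t-test gave 0, 0 and 3 on log2 signals after Benjamini-Hochberg, where 5.46, 0.607 and 8.79% of all probe sets were called. On linear signals it gave 0, 0 and 2 (3.71, 0.531 and 6.06%). At an unadjusted p under 0.05 it gave 6, 19 and 13 members on log2 and 6, 18 and 10 on linear signals. No share of all probe sets is given for these unadjusted counts, so they are not read as an excess. A limma fit of only the groups compared gave 0, 1 and 5 (13.0, 5.04 and 18.7% of all probe sets). Array weights gave 4, 22 and 21, where 23.3, 31.8 and 45.2% of all probe sets were called. Without a signal filter the counts were 0, 5 and 7 (6.13, 4.84 and 12.8% of all probe sets). With repeated quantile normalization they were 0, 8 and 9 (11.6, 9.13 and 24.8%). Leaving out a mouse gave 0 to 2, 0 to 20 and 4 to 19, while the share of all probe sets ranged from 6.92 to 15.3, 1.86 to 28.3 and 13.1 to 34.0%. The replicate numbers did not pair the mice (correlations of same-numbered mice -0.297 to 0.153, 1 of 11 arrays best matched by its own number). With them as a block 0, 0 and 4 members were called, and 7.9, 3.44 and 16.1% of all probe sets. Psmb10 in mdx against C57 mice turned to 0.0117 with array weights and ranged from -0.14 to 0.08 with a mouse left out, and Psmb7 turned to 0.0697 and ranged from -0.1875 to 0.0375, both highest without C57 mouse 3. Psmb5 in treated against C57 mice turned to 0.0002 with array weights, 0.0798 with quantile normalization, and ranged from -0.0633 to 0.0175 with a mouse left out (0.0175 without C57 mouse 3, 0.0133 without treated mouse 1). In mdx against C57 mice the ratio of Psmb10 to Psmb7 ranged from -0.0975 to 0.0475 and that of Psmb9 to Psmb6 from -0.0533 to 0.025 when a mouse was left out, and the latter was 0.01 paired by replicate number. These differences were near 0 and none was called. The cause of these shifts was not tested. Of the values for single genes under all alternatives, 681 kept their direction and side of the threshold and 173 lost the call in the same direction. A further 12 gained a call and 8 changed sign. Only results called in the main fit could lose a call, so the 681 include uncalled values that stayed uncalled. Psmd14 and Psme1 in treated against C57 mice kept their call in all 23 alternatives.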
